A study of Mus musculus with 5 samples.

Results

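Killer lectin receptors are membrane proteins by which NK cells and some T cells read the surface of other cells. Klrd1, Klrc1, Klrc2, Klrk1, Klre1, Klrb1c and Klrg1, 7 of the 28692 genes in the deposited tables, were chosen by name and are described in all 5 libraries of a study of tumor-infiltrating immune cells. UMIs, which stand for single captured transcripts, were counted per cell and summed per cell class and library, with classes set by marker genes that include none of the 7. Klrd1 (CD94) pairs with Klrc1 (NKG2A) into an inhibitory receptor or with Klrc2 (NKG2C) into an activating one, and both read the class Ib molecule Qa-1, whose heavy chain is made by H2-T23. Klrk1 (NKG2D) is an activating receptor for stress-induced ligands of the Rae-1, H60 and Mult1 families and signals through the adaptors Hcst (DAP10) and, in mice, Tyrobp (DAP12). Klre1 pairs in rodents with Klri1 or Klri2, Klrb1c carries the NK1.1 antigen of C57BL/6 mice and signals through Fcer1g, and Klrg1 is an inhibitory receptor for cadherins that is known from matured effector lymphocytes and activated regulatory T cells.

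Live CD45-positive cells, the leukocytes, had been sorted from B16-F10 melanomas, a mouse tumor line of which 500000 cells were placed under the skin, with tumors taken on day 11, and were sequenced with a 5' droplet kit. The 5 libraries are 1 each of mice given anti-PD1 alone, an IL15 superagonist alone, both agents together (combination), an anti-PD1-IL15 protein fusion, and PBS as the control. The sources used here give neither the mouse strain, age, sex and number per library nor the doses, the combination is described as IL15 in one label and as the IL15 superagonist in another, and the labels do not settle when treatment was given relative to tumor removal. Since each treatment has 1 library, no difference between treatments can be tested, and intervals on levels and ratios are 95% intervals of counting error only. Libraries held 6015 to 8747 barcodes with 32832856 to 81565425 UMIs in all and a median of 4279 to 7851 UMIs per cell, highest with the fusion, and 5796 to 8521 cells were used. Any pair of libraries shared 61 to 104 barcodes.

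NK-like cells, which had an Ncr1 UMI, no Cd3d, Cd3e, Cd4, Cd8b1 or Foxp3 UMI and at most 1 Cd3g UMI, numbered 316 with anti-PD1, 811 with IL15 superagonist, 661 with the combination, 152 with the fusion and 164 with PBS. CD8 T-like cells, gated on Cd3 and Cd8 transcripts, numbered 1138, 2018, 3276, 6588 and 961 in that order of libraries. NK-like cells carried their check markers in every library, with Tyrobp between 2645 and 4743 CPM (counts per 1000000 UMIs of the class) and Eomes between 124 and 276 CPM, and they may include type 1 innate lymphoid cells. NK-like cells of fusion stood apart, with 394 CPM of Pdcd1, against 14.97 CPM or less in NK-like cells of the other libraries and 842 CPM in CD8 T-like cells of fusion. The part of this difference in the fusion values below was not tested. Fewer cells of a kind within a class and less RNA per cell cannot be told apart in these sums.

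All 7 genes lie on chromosome 6 in mm10. Klre1 (chr6:129577905-129585827, plus strand), Klrd1 (chr6:129591782-129598775, plus), Klrk1 (chr6:129610323-129623864, minus), Klrc2 (chr6:129647496-129660689, minus) and Klrc1 (chr6:129666015-129678973, minus) lie in this order in the NK gene complex, Klrb1c (chr6:128778485-128789215, minus) lies nearer the centromere and Klrg1 (chr6:122270596-122282882, minus) nearer still. Klrb1c was the only one of the 7 whose GENCODE gene body overlapped another gene, Gm44511 on the same strand. Klrc1 and Klrc2 are close copies: of 2030 distinct runs of 50 bases in Klrc1 transcripts, 742 also occur in Klrc2, and 38.6% occur in some other gene. For Klrc2 the shared part is 16.3%, for Klrb1c 16.98%, for Klre1 0.28%, and for Klrd1, Klrk1 and Klrg1 it is 0%. Klrb1c has 371 of its 3003 runs in common with Gm44511. Klrc1, Klrc2 and Klrb1c levels are therefore uncertain to the extent that reads from shared stretches were assigned to another gene or dropped.

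RefSeq promoters on GRCm38.p6 were given for 5 of the 7 genes, Klrb1c, Klre1, Klrk1, Klrc2 and Klrc1, not Klrd1 or Klrg1. The 250 bases before each start are shown because these genes share a short motif there that most promoters lack. All 5 hold TGTGGT or its reverse complement ACCACA, the core that RUNX factors bind, which stands in capitals, against 14.2% of the 27025 promoters of the same length. The other motifs searched on both strands were TCACAC for T-box factors, held by 0 of 5 and 12.2% of all promoters, TTCNNNGAA for STAT factors, held by 0 of 5 and 7.18%, and AGGAAG for ETS factors, held by Klrb1c alone and by 29.2%. For Klrc2 and Klre1, which have 2 listed starts, the first was used. The regions are chr6:128788642-128788891 (minus) for Klrb1c, chr6:129577963-129578212 (plus) for Klre1, chr6:129623865-129624114 (minus) for Klrk1, chr6:129660597-129660846 (minus) for Klrc2 and chr6:129678974-129679223 (minus) for Klrc1. The RefSeq starts used for Klrb1c, Klre1 and Klrc2 lie inside the GENCODE gene bodies given above. Their regions are thus wholly (Klrb1c, Klre1) or partly (Klrc2) within those bodies.
Klrb1c: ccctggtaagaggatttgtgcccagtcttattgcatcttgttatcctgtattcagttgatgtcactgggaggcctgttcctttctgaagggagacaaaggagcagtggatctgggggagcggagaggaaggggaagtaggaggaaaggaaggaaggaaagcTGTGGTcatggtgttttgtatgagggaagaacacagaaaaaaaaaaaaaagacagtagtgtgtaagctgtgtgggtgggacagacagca
Klre1: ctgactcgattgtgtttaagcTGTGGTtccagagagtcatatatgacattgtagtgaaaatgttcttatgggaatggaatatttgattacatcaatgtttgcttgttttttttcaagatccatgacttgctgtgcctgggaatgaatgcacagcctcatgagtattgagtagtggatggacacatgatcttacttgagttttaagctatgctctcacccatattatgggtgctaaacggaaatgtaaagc
Klrk1: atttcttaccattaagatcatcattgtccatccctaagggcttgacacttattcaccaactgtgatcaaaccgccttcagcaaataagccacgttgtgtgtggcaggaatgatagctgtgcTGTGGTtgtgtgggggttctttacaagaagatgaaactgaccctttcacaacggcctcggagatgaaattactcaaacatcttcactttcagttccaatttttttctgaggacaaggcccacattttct
Klrc2: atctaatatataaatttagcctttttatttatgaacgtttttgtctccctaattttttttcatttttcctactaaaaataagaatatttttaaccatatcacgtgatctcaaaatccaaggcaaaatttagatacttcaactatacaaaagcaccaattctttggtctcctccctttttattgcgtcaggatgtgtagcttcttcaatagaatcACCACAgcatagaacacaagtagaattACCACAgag
Klrc1: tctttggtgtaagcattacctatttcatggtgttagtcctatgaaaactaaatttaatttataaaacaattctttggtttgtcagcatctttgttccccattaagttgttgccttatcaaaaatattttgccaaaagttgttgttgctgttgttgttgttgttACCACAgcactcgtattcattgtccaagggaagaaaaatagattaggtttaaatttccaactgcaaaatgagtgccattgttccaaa
The motif starts 89 bases before the RefSeq start in Klrb1c, 229 in Klre1, 129 in Klrk1, 36 and 9 in Klrc2, and 87 in Klrc1. A match describes letters and does not show that a factor binds.

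Klrd1, the shared chain of the NKG2A and NKG2C receptors, was high in NK-like cells and nearly as high in CD8 T-like cells. It reached 600.2 CPM with anti-PD1, 704 with IL15 superagonist, 726 with the combination, 908 with the fusion and 554 with PBS among NK-like cells. Among CD8 T-like cells it reached 457 CPM with anti-PD1, 584 with IL15 superagonist, 691 with the combination, 669 with the fusion and 424 with PBS. NK-like cells were higher in 5 of 5 libraries, by 0.35 ± 0.08 on the log2 scale (SE; edgeR quasi-likelihood test with library as a block, Benjamini-Hochberg adjusted p = 0.00495 over 9983 genes). Without the library as a block the adjusted p was 0.233.

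Klrc1, the inhibitory NKG2A chain, was the member for which the 2 cytotoxic classes did not differ beyond the spread between libraries. NK-like cells had 172 CPM with anti-PD1, 349.7 with IL15 superagonist, 334 with the combination, 289.9 with the fusion and 176 with PBS. CD8 T-like cells had 216 CPM with anti-PD1, 331 with IL15 superagonist, 348 with the combination, 276 with the fusion and 106 with PBS. The difference was 0.11 ± 0.12 on the log2 scale, with NK-like cells higher in 3 of 5 libraries (edgeR adjusted p = 0.53), and it turned to -0.04 without the PBS library. Gamma-delta T-like cells ranged over 193 to 441 CPM, a range that overlaps those of NK-like and CD8 T-like cells.

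Klrc2, the activating NKG2C chain, separated the classes that Klrc1 did not. NK-like cells had 84.5 CPM with anti-PD1, 66.2 with IL15 superagonist, 73.2 with the combination, 56.3 with the fusion and 102 with PBS. CD8 T-like cells had 20.1 CPM with anti-PD1, 19.5 with IL15 superagonist, 24.2 with the combination, 11.8 with the fusion and 12.6 with PBS. The ranges do not overlap, and Klrc2 rose by 2.08 ± 0.17 on the log2 scale, or 4.23-fold, in NK-like cells (edgeR adjusted p = 7.3e-06, higher in 5 of 5 libraries).

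Klrk1, the NKG2D receptor, had 447 CPM with anti-PD1, 422 with IL15 superagonist, 422 with the combination, 394 with the fusion and 287 with PBS among NK-like cells. CD8 T-like cells had 183 CPM with anti-PD1, 286 with IL15 superagonist, 287 with the combination, 257 with the fusion and 129.7 with PBS. NK-like cells were 1.81-fold higher (log2 0.86 ± 0.12, edgeR adjusted p = 0.000351, 5 of 5 libraries). Klre1, the partner chain of Klri1 and Klri2, had 376 to 473 CPM in NK-like cells, the narrowest span of the 7 genes there relative to its level, and 67.1 to 126 CPM in CD8 T-like cells. It was 4.60-fold higher in NK-like cells (log2 2.20 ± 0.13, edgeR adjusted p = 5.4e-07, 5 of 5 libraries).

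Klrb1c, the NK1.1 gene, gave the largest difference between NK-like and CD8 T-like cells among the 7. NK-like cells had 381 CPM with anti-PD1, 493 with IL15 superagonist, 515 with the combination, 384 with the fusion and 273 with PBS. CD8 T-like cells had 4.88 CPM with anti-PD1, 23.5 with IL15 superagonist, 16.4 with the combination, 33.3 with the fusion and 2.39 with PBS. The log2 difference was 4.92 ± 0.38, or 30.3-fold (edgeR adjusted p = 4.1e-06, 5 of 5 libraries). In macrophage/monocyte-like cells, which are not known to make NK1.1, Klrb1c had 1.93 to 2.96 CPM. The 2.39 CPM of CD8 T-like cells with PBS, from 15 UMIs, lies in that range. These UMIs were in 10 cells, of which 70.0% had a UMI of a Ly49 gene (Klra family). Among the other CD8 T-like cells with PBS 5.78% had one.

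Klrg1 had its highest levels in Treg-like cells, that is, T cells with a Foxp3 UMI and no Cd8a or Cd8b1 UMI. They had 229.8 CPM with anti-PD1, 320.4 with IL15 superagonist, 379 with the combination and 315 with PBS, while fusion, with 15 such cells, did not enter. NK-like cells had 84.5 CPM with anti-PD1, 315 with IL15 superagonist, 268.5 with the combination, 146 with the fusion and 36.4 with PBS, which is the widest spread relative to its level of any member in that class. CD8 T-like cells had 10.2 to 29.4 CPM. Klrg1 was 13.4-fold higher in Treg-like than in CD8 T-like cells (log2 3.74 ± 0.17, edgeR adjusted p = 1e-08, 4 of 4 libraries) and 8.46-fold higher in NK-like than in CD8 T-like cells (log2 3.08 ± 0.26, adjusted p = 7.3e-06, 5 of 5 libraries).

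**Figure D1:**
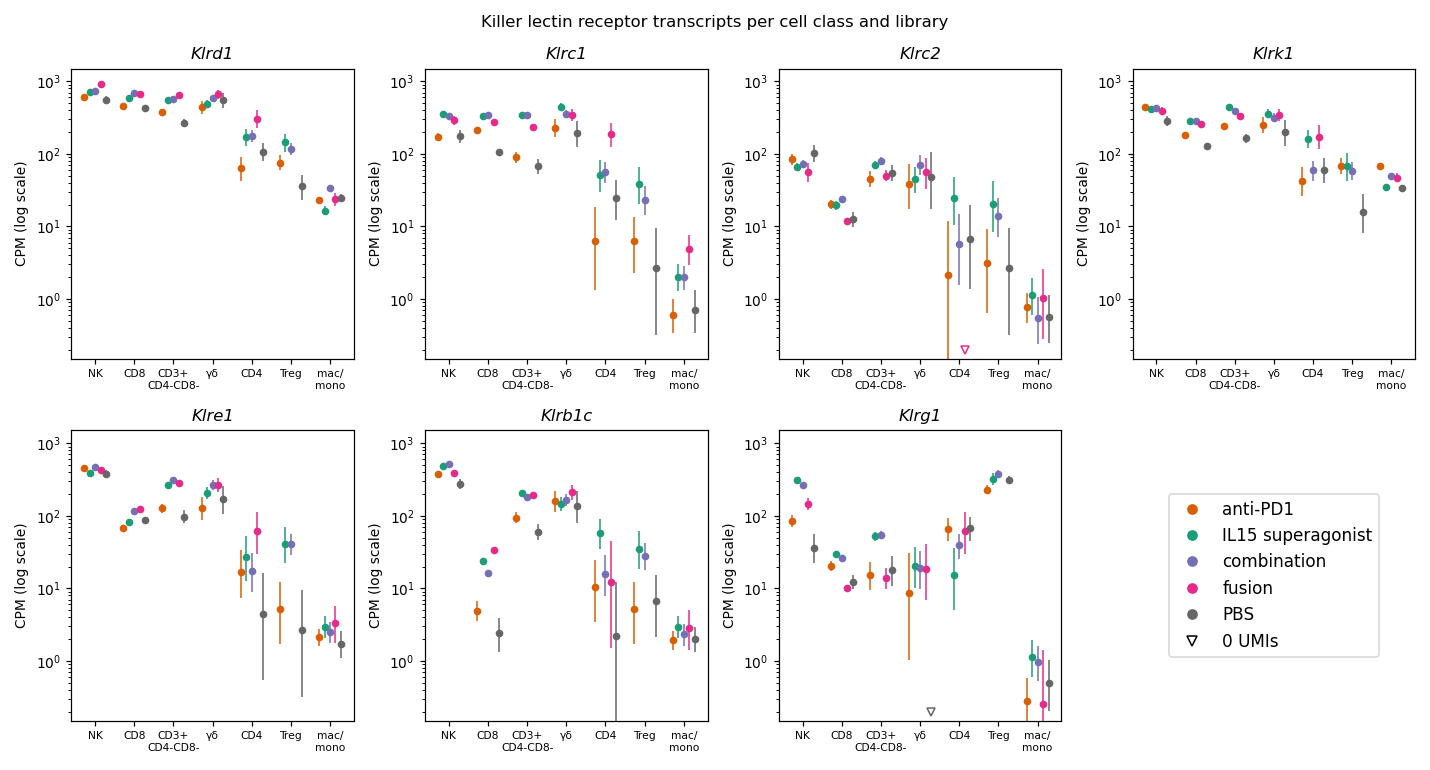
CPM of each gene (log scale) by cell class, 1 point per library in the colors of the legend, with 95% Poisson intervals; open triangles at the lower edge are classes with 0 UMIs, and Treg-like cells of fusion are left out. Klrd1 and Klrc1 have overlapping ranges in NK-like, CD8 T-like and gamma-delta T-like cells, Klrb1c in CD8 T-like cells spans 2.39 to 33.3 CPM, and Klrg1 alone of the 7 has its highest median in Treg-like cells.

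Over the 7 genes, 6 rose in NK-like cells relative to CD8 T-like cells, where 18.3% of all tested genes rose and 19.9% fell, and the median log2 difference was 2.08, beside -0.02 over all genes. In Treg-like cells 5 of the 7 fell relative to CD8 T-like cells, where 9.37% of tested genes did, and Klrg1 rose, as did 14.0% of tested genes. Klrc1 fell most there, by 4.18 ± 0.22 on the log2 scale (adjusted p = 3.5e-08, lower in 4 of 4 libraries), and Klrd1 fell by 2.73 ± 0.17 (adjusted p = 1.3e-07). The fall of Klrc2, by 1.29 ± 0.35, was not past the threshold without anti-PD1, without the library as a block, or with every cell thinned to 2000 UMIs. CD4 T-like cells had no Foxp3 UMI but may include regulatory T cells whose Foxp3 was not captured, and the part of such cells was not tested. In CD4 T-like cells 5 of 7 fell relative to CD8 T-like cells, where 12.4% of tested genes did. Klrc1 fell by 2.45 ± 0.29 on the log2 scale there (edgeR adjusted p = 1.4e-05), and Klre1 fell by 2.32 ± 0.25 (adjusted p = 6.2e-06), each in 5 of 5 libraries. Klrg1 rose by 1.23 ± 0.34 in CD4 T-like cells (edgeR adjusted p = 0.0145), as did 12.4% of tested genes, but was not past the threshold without anti-PD1 (0.0612), fusion (0.0543) or PBS (0.0737). The fall of Klrc2 in CD4 T-like cells, by 1.36 ± 0.43, likewise missed it without anti-PD1, combination or fusion, at adjusted p between 0.0538 and 0.165, and with DESeq2 (0.051), at equal depth (0.271) or without the library as a block (0.113).

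The 7 genes differ in how far down the order of classes they stay high. Klrb1c had 273 CPM or more in NK-like cells and 212 CPM or less in every other class, so the ranges do not meet, and CD3-positive cells without CD4 or CD8 (60.7 to 206 CPM) and gamma-delta T-like cells (136 to 212 CPM) overlap each other. Klre1 followed a like order, with 376 CPM or more in NK-like cells and then 97.7 to 310.5 CPM in CD3-positive cells without CD4 or CD8, 127.8 to 268 CPM in gamma-delta T-like cells, which overlap each other, and 67.1 to 125.8 CPM in CD8 T-like cells, just under the gamma-delta range. Klrd1 and Klrk1 ranges overlapped between each neighbouring pair of these 4 classes. Klrg1 ranges of Treg-like and NK-like cells overlapped, as did those of CD4, CD8 and gamma-delta T-like cells with their neighbours.

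Over 27 sums of a T or NK class in a library with at least 50 cells, the likeness of patterns was measured as Pearson's r of log2(CPM + 1) among 10550 genes. The gene most like Klrd1 was Klrc1 (r = 0.97) and the reverse held, with Atp8b4 next for both (0.95 and 0.96). Klrk1 was most like Klrd1 (0.95) and Ctsw (0.94), Klre1 most like Sult2b1 (0.93), Klrc2 most like Bcl2l11 (0.92), and Klrb1c most like Hhex (0.96) and Ncr1 (0.95), of which Ncr1 was used to gate NK-like cells. Klrg1 was most like Ccr2 (0.84) and had r between -0.43 and 0.02 with the other 6 genes. The sums share libraries and classes, so these values are a description.

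**Figure D2:**
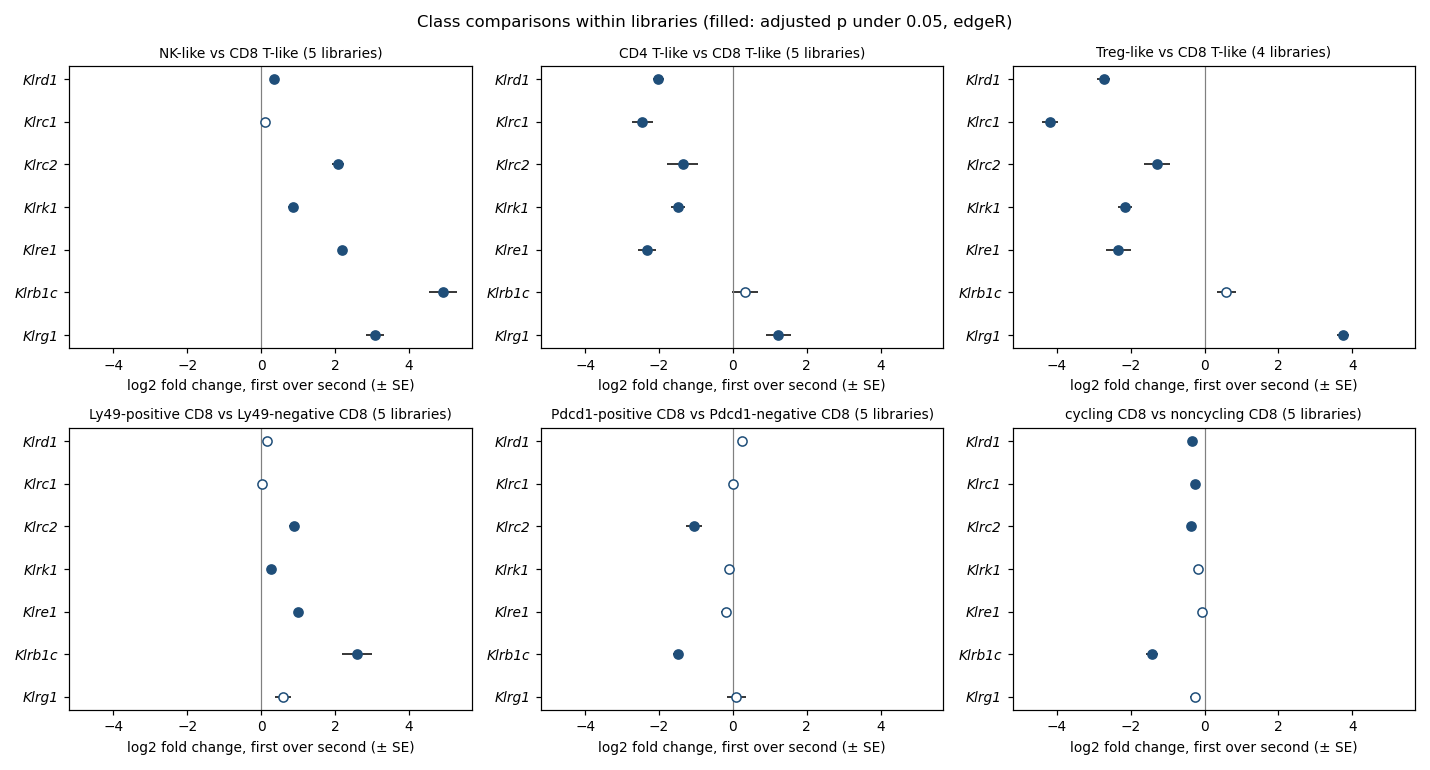
Log2 fold change of each gene between 2 cell classes or CD8 T-like subsets within libraries, first over second as titled. Bars are standard errors derived from the log2 fold change and the F statistic of the edgeR test. Filled points have an adjusted p under 0.05. NK-like cells are higher for all but Klrc1, Treg-like cells are higher for Klrg1 alone among the points that pass, and Ly49-positive CD8 T-like cells are higher for Klrb1c, Klre1, Klrc2 and Klrk1.

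Genes of the group were also read in single cells, each thinned to 2000 UMIs so that depth is equal. At least 3 of the 7 were detected in 66.1% of NK-like cells with anti-PD1, 73.8% with IL15 superagonist, 76.7% with the combination, 71.1% with the fusion and 47.8% with PBS. In CD8 T-like cells the share was 12.9% with anti-PD1, 22.9% with IL15 superagonist, 28.5% with the combination, 24.8% with the fusion and 8.77% with PBS. Both classes thus had the lowest share with PBS, and macrophage/monocyte-like cells had 0.17% or less in every library. In CD8 T-like cells of the 5 libraries, a Klrd1 UMI was found in 59.1% to 71.4% of cells with a Klrc1 UMI and in 41.3% to 60.1% of cells without one, and the first share was the higher in 5 of 5 libraries. For NK-like cells the same shares were 58.3% to 82.5% and 61.9% to 73.7%, and the first was higher in 4 of 5 libraries. The exact 95% intervals of both shares overlapped in each library, and the difference between the shares was not tested. Klrg1-positive NK-like cells had a Klrc1 UMI in 20.5%, against 27.4% of Klrg1-negative ones, with anti-PD1, in 39.1%, against 47.7%, with IL15 superagonist, in 33.5%, against 48.1%, with the combination, and in 16.7%, against 44.0%, with the fusion. With PBS, where 9 NK-like cells were Klrg1-positive, the shares were 22.2% and 21.6%. The exact 95% intervals of these shares overlapped with anti-PD1, IL15 superagonist and PBS. They were apart with the combination and with the fusion, which had 36 Klrg1-positive NK-like cells.

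Klrk1 was also found in macrophage/monocyte-like cells, in which it had 69.0 CPM with anti-PD1, 35.3 with IL15 superagonist, 49.8 with the combination, 47.1 with the fusion and 34.1 with PBS. A Klrk1 UMI was found in 26.7%, 15.5%, 20.8%, 20.3% and 12.3% of these cells in that order of libraries, and in 5.29% to 10.3% when thinned to 2000 UMIs. Per Klrd1 UMI there were 1.36 to 3.02 Klrk1 UMIs in macrophage/monocyte-like cells, against 0.43 to 0.75 in NK-like cells and 0.31 to 0.49 in CD8 T-like cells. CD4 T-like cells reached 0.946 with IL15 superagonist. B-like cells, gated on B-cell genes, had a ratio of 1.3 with PBS, from 13 Klrk1 and 10 Klrd1 UMIs, and at most 2 Klrk1 UMIs in any other library. The source of the Klrk1 UMIs in macrophage/monocyte-like cells was not tested. Klrd1 had 16.6 to 33.8 CPM, Klrc1 at most 4.83 CPM and Klre1 at most 3.31 CPM in macrophage/monocyte-like cells.

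**Figure D3:**
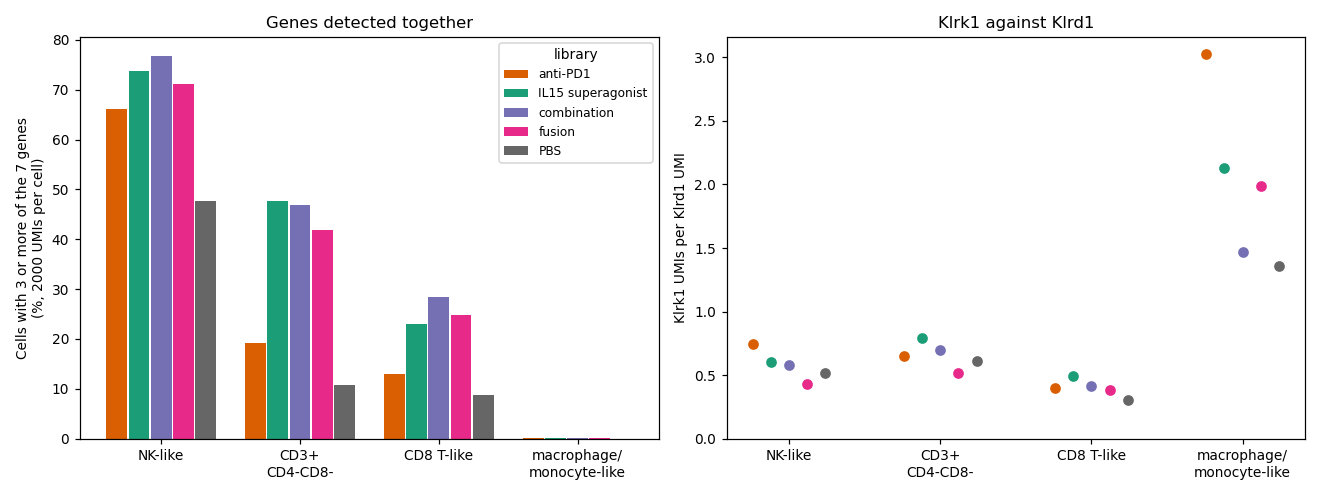
Left, share of cells (percent) with at least 3 of the 7 genes after thinning to 2000 UMIs per cell, by class and library; right, Klrk1 UMIs per Klrd1 UMI in the same classes, 1 point per library. Shares are lowest with PBS within each lymphocyte class, and the ratio exceeds 1 only in macrophage/monocyte-like cells among the 4 classes shown.

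Within CD8 T-like cells, those with a UMI of a Ly49 gene (Klra family, inhibitory and activating receptors of NK cells) held more of 4 of the 7 genes, where 2.32% of all tested genes rose. Klrb1c rose by 2.61 ± 0.41 on the log2 scale, or 6.09-fold (edgeR adjusted p = 0.00127), Klre1 by 0.99 ± 0.11 (adjusted p = 7.2e-05), Klrc2 by 0.88 ± 0.13 (adjusted p = 0.000643) and Klrk1 by 0.27 ± 0.06 (adjusted p = 0.0223), each in 5 of 5 libraries. Klrc1 differed by 0.02 ± 0.07 (adjusted p = 0.988). None of the 4 was past the threshold without the library as a block, at adjusted p of 0.287 or more, and Klrk1 was not past it without anti-PD1, IL15 superagonist or combination, at adjusted p between 0.0535 and 0.132, or at equal depth (0.0971), while Klrg1 (0.59 ± 0.21, adjusted p = 0.179) reached 0.0117 without fusion. All 4 tested genes of the other killer lectin receptors (Klri2, Klrb1a, Klrb1b, Klrb1f) rose as well, Klrb1a by 3.17 ± 0.30 (adjusted p = 8.4e-06), and of 12 tested adaptor and signalling genes 4 rose, among them Tyrobp by 2.86 ± 0.25 (adjusted p = 2.4e-06) and Fcer1g by 1.80 ± 0.24 (adjusted p = 0.000294). Ncr1, the NKp46 receptor that marks NK cells, rose by 4.38 ± 0.29 in the same cells (adjusted p = 6.9e-08), and its part in these differences was not tested.

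CD8 T-like cells with a UMI of Pdcd1, the gene of PD-1, held less Klrc2 and Klrb1c, 2 of 7, where 21.8% of tested genes fell and 21.7% rose. Klrc2 fell by 1.05 ± 0.21 on the log2 scale (edgeR adjusted p = 0.00293) and Klrb1c by 1.48 ± 0.13 (adjusted p = 3e-05), each lower in 5 of 5 libraries. At equal depth Klrb1c differed by -0.36 with an adjusted p of 0.38, and without the library as a block its adjusted p was 0.18. Klrd1 differed by 0.24 ± 0.09 (edgeR adjusted p = 0.0545, higher in 4 of 5 libraries), and by 0.34 without PBS (adjusted p = 0.007). In cycling CD8 T-like cells (at least 2 UMIs of 6 proliferation genes) 4 of 7 fell, where 26.0% of tested genes did. Klrb1c fell by 1.42 ± 0.16 (edgeR adjusted p = 3.7e-05), and Klrd1, Klrc1 and Klrc2 by 0.35, 0.27 and 0.36 (adjusted p = 0.00209, 0.0075 and 0.0182), and at equal depth those 3 had adjusted p of 0.0502, 0.108 and 0.0987. Without combination the adjusted p of Klrc2 was 0.107, and with DESeq2 it was 0.0532. Klrk1 (-0.18 ± 0.08, edgeR adjusted p = 0.0846) had 0.0235 without anti-PD1, 0.0497 without fusion, 0.0457 with DESeq2 and 0.0157 with no filter on low counts. None of the 4 passed without the library as a block, at adjusted p of 0.263 or more.

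Between treatments, the CD8 T-like cells of each treated library had more of most of the 7 genes than those of PBS. A gene was called at 1.5-fold or more, with at least 20 UMIs over both libraries. By this rule 4 of 7 were higher with anti-PD1 (8.44% of all genes), 5 with IL15 superagonist (14.9%), 6 with the combination (12.2%) and 4 with the fusion (18.3%). None of the 7 was called lower, where 11.1%, 19.3%, 18.7% and 29.0% of all genes were in that order of libraries. The 4 comparisons share the PBS library. Cycling cells made up 34.7% of CD8 T-like cells with anti-PD1, 12.5% with IL15 superagonist, 14.6% with the combination, 65.3% with the fusion and 32.7% with PBS, and the part of this in the ratios was not tested. With cells thinned to 2000 UMIs the count with anti-PD1 was 1. Klrc1 was 2.04-fold higher with anti-PD1 (1.86 to 2.23), 3.12-fold with IL15 superagonist (2.87 to 3.39), 3.28-fold with the combination (3.03 to 3.56) and 2.60-fold with the fusion (2.41 to 2.82). Klrc1 was thus higher in each of the 4 treated libraries beyond counting error. Klrk1 was 1.41-fold higher with anti-PD1 (1.29 to 1.53), 2.20-fold with IL15 superagonist (2.04 to 2.38), 2.21-fold with the combination (2.06 to 2.38) and 1.98-fold with the fusion (1.85 to 2.13). Klrd1 was 1.08-fold higher with anti-PD1 (1.02 to 1.13), 1.38-fold with IL15 superagonist (1.32 to 1.44), 1.63-fold with the combination (1.56 to 1.70) and 1.58-fold with the fusion (1.52 to 1.64). Klrc2 was 1.59-fold higher with anti-PD1 (1.21 to 2.11), 1.54-fold with IL15 superagonist (1.19 to 2.02) and 1.92-fold with the combination (1.51 to 2.46), and its interval held 1 with the fusion (0.74 to 1.196). Klrg1 was 1.65-fold higher with anti-PD1 (1.26 to 2.19), 2.39-fold with IL15 superagonist (1.86 to 3.10) and 2.16-fold with the combination (1.70 to 2.77), and its interval again held 1 with the fusion (0.66 to 1.07). Klre1 was called in none of the 4 libraries, at 0.76-fold with anti-PD1 (0.67 to 0.85), 0.94-fold with IL15 superagonist (0.85 to 1.04), 1.33-fold with the combination (1.21 to 1.46) and 1.42-fold with the fusion (1.30 to 1.55).

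In NK-like cells 2 of 7 genes were called higher than PBS with anti-PD1 (17.4% of all genes), 3 with IL15 superagonist (22.8%), 3 with the combination (21.4%) and 3 with the fusion (24.6%). Klrg1 was among them in each library. The others were Klrk1 for anti-PD1, Klrc1 and Klrb1c for IL15 superagonist and combination, and Klrd1 and Klrc1 for the fusion. Klrg1 had the largest ratios, 2.33-fold with anti-PD1 (1.44 to 3.94), 8.67-fold with IL15 superagonist (5.59 to 14.3), 7.39-fold with the combination (4.75 to 12.2) and 4.00-fold with the fusion (2.48 to 6.79), all set against 20 UMIs with PBS. At equal depth they were 4.93-fold with IL15 superagonist and 4.49-fold with the combination. Klrc1 was 0.97-fold with anti-PD1 (0.77 to 1.25), 1.98-fold with IL15 superagonist (1.61 to 2.47), 1.90-fold with the combination (1.54 to 2.36) and 1.64-fold with the fusion (1.29 to 2.104). Its interval thus held 1 with anti-PD1 and not in the libraries with an IL15 agent. Klrb1c was 1.81-fold higher with IL15 superagonist (1.53 to 2.15) and 1.89-fold with the combination (1.60 to 2.25). Klrc2 ran the other way in NK-like cells, at 0.65-fold with IL15 superagonist (0.48 to 0.89) and 0.55-fold with the fusion (0.37 to 0.83), the only gene of the 7 called lower there, where 18.9% and 24.2% of all genes were. With anti-PD1 and with the combination no gene of the 7 was called lower (15.6% and 18.1% of all genes). Without doublet removal Klrc2 was not called lower with IL15 superagonist, nor at equal depth with the fusion. Of the NK and effector maturation genes, 6 of 12 were higher and 2 lower with IL15 superagonist, and 5 of 11 higher and 4 lower with the fusion. Among those higher was Gzma, a granzyme of NK cells, at 4.81-fold with IL15 superagonist (4.59 to 5.05) and 2.85-fold with the fusion (2.71 to 3.01). Of 13 adaptor and signalling genes 6 were higher and 0 lower with IL15 superagonist, among them Tyrobp at 1.68-fold (1.59 to 1.78). With the fusion 4 of these 13 were higher and 2 lower. The shares of all genes for these comparisons are those given above.

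**Figure D4:**
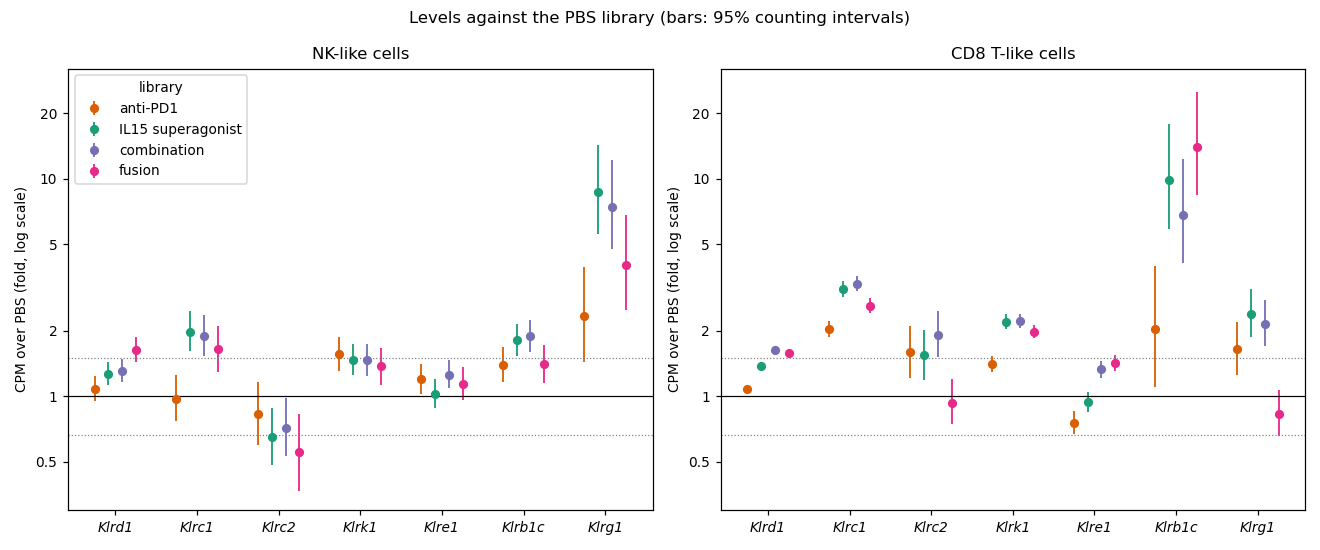
Ratio of CPM in each treated library to PBS (log scale) for NK-like cells, left, and CD8 T-like cells, right, with exact 95% counting intervals; dotted lines mark 1.5-fold in either direction. Klrg1 has the highest ratios in NK-like cells and Klrb1c in CD8 T-like cells, against 20 and 15 UMIs with PBS. Klrc2 lies below 1 in NK-like cells, with an interval that holds 1 for anti-PD1.

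The 3 libraries with an IL15 agent (superagonist, combination and fusion) were set beside anti-PD1 and PBS without a test, since the agents differ. In CD8 T-like cells all 3 were above both others for 4 of 7 genes, Klrd1, Klrc1, Klrk1 and Klrb1c, where 15.1% of all genes have that order and 22.1% the reverse. In NK-like cells this held for Klrd1, Klrc1, Klrg1 and Klrb1c (19.3% of all genes), and Klrc2 had the reverse order (16.7%). For Klrb1c it rests on 384 CPM with the fusion against 381 CPM with anti-PD1, a ratio of 1.01 that is within counting error (0.87 to 1.16). In CD3-positive cells without CD4 or CD8, which are not named as a type, 5 of 7 had it (22.6% of all genes, with 19.4% in the reverse order), with Klrc1 at 232 to 341 CPM in the 3 libraries, against 67.3 to 89.8 CPM with anti-PD1 and PBS, and Klre1 at 264 to 310.5 CPM, against 97.7 to 127 CPM. In gamma-delta T-like cells Klrc1, Klrk1 and Klre1, along with Klrg1 at under 50 UMIs in all, had it (22.3%), with Klrc1 at 345 to 441 CPM, against 193 to 230.1 CPM. With PBS this class had 38 cells and 24 Klrc1 UMIs.

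With anti-PD1 in place of PBS, a comparison chosen after seeing the data, CD8 T-like cells had 3 of 7 genes higher with IL15 superagonist (Klrc1, Klrk1 and Klrb1c; 9.89% of all genes), 5 with the combination (6.42%), and 2 with the fusion (Klre1 and Klrb1c; 12.1%). Klrc2 and Klrg1 were lower with the fusion, at 0.59-fold and 0.50-fold (21.0% of all genes), and none was lower with IL15 superagonist (11.2%) or combination (10.6%). In NK-like cells Klrc1 and Klrg1 were higher with IL15 superagonist (14.1%) and combination (11.9%), along with Klrd1 with the fusion (12.4%), and Klrc2 was lower with the fusion, at 0.67-fold (17.8%), while none was lower with IL15 superagonist (13.5%) or combination (12.1%).

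Fusion and combination both bring anti-PD1 and IL15. In CD8 T-like cells 3 of 7 genes were called between them. Klrb1c was 2.04-fold higher with the fusion (1.82 to 2.29), the 1 gene called higher, where 13.3% of all genes were, and Klrc2 and Klrg1 were lower, at 0.49-fold (0.44 to 0.55) and 0.39-fold (0.34 to 0.43), where 18.8% were. Klrd1 differed by 0.97-fold (0.95 to 0.99) and Klre1 by 1.07-fold (1.02 to 1.12). In NK-like cells Klrg1 was 0.54-fold with the fusion (0.44 to 0.66), the 1 gene called, where 18.7% of all genes were lower and 11.2% higher. In CD3-positive cells without CD4 or CD8, Klrg1 was 0.26-fold (0.17 to 0.36) and Klrc2 0.62-fold (0.50 to 0.77) with the fusion.

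Klrb1c in CD8 T-like cells changed in level and in the cells that carried it. It was 13.9-fold higher with the fusion than with PBS (8.43 to 24.9), 9.83-fold with IL15 superagonist (5.86 to 17.8), 6.84-fold with the combination (4.09 to 12.3) and 2.04-fold with anti-PD1 (1.11 to 3.96). All of these are against 15 UMIs with PBS, a level within the range of macrophage/monocyte-like cells. At equal depth the ratios were 30.6 with the fusion, 17.2 with IL15 superagonist and 11.6 with the combination, with still fewer UMIs behind them. After thinning to 2000 UMIs the share of CD8 T-like cells with a Klrb1c UMI was 0.88% with anti-PD1, 4.37% with IL15 superagonist, 2.99% with the combination, 6.74% with the fusion and 0.54% with PBS, beside 0.25% to 0.52% of macrophage/monocyte-like cells. Without thinning the shares were 1.85%, 8.67%, 6.07%, 20.6% and 1.04%. In Ly49-negative CD8 T-like cells Klrb1c had 29.2 CPM with the fusion (27.8 to 30.6), beside 9.06 CPM with IL15 superagonist (7.30 to 11.1) and 5.34 CPM with the combination (4.34 to 6.49). With anti-PD1 and PBS they had 0.39 and 0.51 CPM, 3 UMIs each. In Ly49-positive ones the fusion was the lowest of the same 3 libraries, with 97.1 CPM with IL15 superagonist (83.8 to 112), 83.5 CPM with the combination (73.6 to 94.4) and 59.7 CPM with the fusion (54.8 to 65.0).

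The cells with a Klrb1c UMI were compared with the rest of the CD8 T-like cells, as a description, since the gene itself divides them. They numbered 21 with anti-PD1, 175 with IL15 superagonist, 199 with the combination, 1356 with the fusion and 10 with PBS. Of these, 90.5% with anti-PD1, 58.3% with IL15 superagonist, 63.3% with the combination, 23.4% with the fusion and 70.0% with PBS had a Ly49 UMI, against 5.78% to 10.4% of Klrb1c-negative cells. Tyrobp had 637 CPM with anti-PD1, 1136 with IL15 superagonist, 1146 with the combination, 109 with the fusion and 1063 with PBS among Klrb1c-positive cells. Klrb1c-positive cells of fusion thus had less Tyrobp than those of the other 4 libraries. Fcer1g, the adaptor of NK1.1, had 1290.4 CPM in Klrb1c-positive cells of fusion, against 522 CPM in Klrb1c-negative ones, and 611 to 979 CPM in Klrb1c-positive cells of the other libraries. Per Ncr1 UMI there were 14.8 Klrb1c UMIs in CD8 T-like cells of fusion and 2.14 to 3.47 in those of the other libraries. Klrb1c-positive cells were deeper than Klrb1c-negative ones with the fusion, at a median of 9873 against 8644 UMIs, and the part of depth in these differences was not tested.

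**Figure D5:**
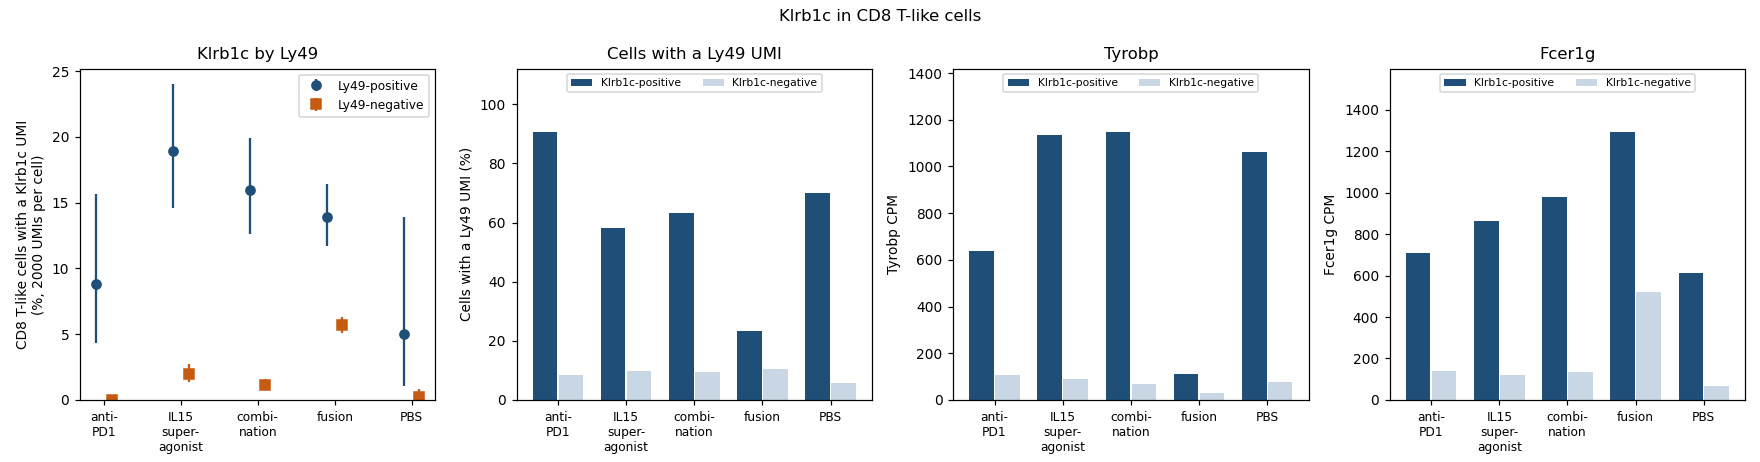
From left, share of Ly49-positive and Ly49-negative CD8 T-like cells with a Klrb1c UMI at 2000 UMIs per cell (95% exact intervals), then, for Klrb1c-positive and Klrb1c-negative CD8 T-like cells, the share with a Ly49 UMI and the CPM of Tyrobp and Fcer1g, by library. Among Klrb1c-positive cells those of fusion had the lowest share with a Ly49 UMI (23.4%) and the least Tyrobp (109 CPM) of the 5 libraries.

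Partner genes were counted from lists, beside the 18.3% of all tested genes that rose and the 19.9% that fell in NK-like relative to CD8 T-like cells. Of the other killer lectin receptors, 5 of 5 tested rose in NK-like cells, Klrb1f by 5.51 ± 0.24 and Klri2, a partner of Klre1, by 4.14 ± 0.20 on the log2 scale (edgeR adjusted p = 5.7e-08 and 1e-07). Of 13 adaptor and signalling genes 6 rose and 3 fell, with Tyrobp higher by 5.12 ± 0.21 (adjusted p = 4.9e-08) and Zap70, a kinase of the T-cell receptor, lower at -0.63 ± 0.12 (adjusted p = 0.00162). Of 13 genes of NK and effector maturation analysed here 9 rose and 2 fell. Those that rose include Ncr1, whose rise is fixed by the gate for NK-like cells, and those that fell were Cd27 and Cx3cr1. Of 5 ligand genes that passed the filter 1 rose, Clec2d, a ligand of the Klrb1 family, by 0.86 ± 0.14 (adjusted p = 0.000735). In CD8 T-like cells of fusion against PBS, 1 of 5 ligand genes was called higher and 2 lower. Of 13 adaptor and signalling genes 3 were higher and 5 lower there, beside 18.3% and 29.0% of all genes. H2-T23, whose product NKG2A reads, had 179 CPM in CD8 T-like cells of fusion, against 308 CPM with PBS, a ratio of 0.58 (0.55 to 0.61). Ulbp1, which makes the NKG2D ligand Mult1, was 4.17-fold higher in the same comparison (2.65 to 6.96). Raet1d, which makes another NKG2D ligand, had 1.72 to 3.56 CPM in macrophage/monocyte-like cells. Fcer1g in CD8 T-like cells had 154 CPM with anti-PD1, 184 with IL15 superagonist, 189.5 with the combination, 690.1 with the fusion and 70.9 with PBS, so that it was 9.74-fold higher with the fusion than with PBS (8.87 to 10.7). Hcst, the adaptor of NKG2D, was 0.63-fold with the fusion in the same cells (0.60 to 0.65) and 1.54-fold higher with IL15 superagonist (1.48 to 1.60). With IL15 superagonist 5 of 13 adaptor and signalling genes were higher and 1 lower in these cells, beside 14.9% and 19.3% of all genes. In cycling relative to noncycling CD8 T-like cells Hcst fell by 1.22 ± 0.09, H2-T23 by 0.49 ± 0.06 and Fcer1g by 0.71 ± 0.11 on the log2 scale, and Ulbp1 rose by 1.69 ± 0.23 (edgeR adjusted p = 1.2e-06, 7.2e-05, 0.000294 and 0.000122). The share of cycling cells was highest with the fusion, and its part in these ratios was not tested. Klrb1b, an inhibitory relative of Klrb1c, was lower than with PBS in NK-like cells of all 4 treated libraries, between 0.21-fold with the fusion (0.15 to 0.28) and 0.52-fold with the combination (0.44 to 0.62). Of the other killer lectin receptors with enough UMIs in NK-like cells, 2 were higher and 1 lower with anti-PD1 (of 4), with IL15 superagonist (of 6) and with the combination (of 6), and 2 were lower with the fusion (of 4), beside the shares of all genes given above for the same comparisons. Those higher were Klrb1a and Klrb1f with anti-PD1, at 1.59-fold (1.13 to 2.29) and 1.62-fold (1.13 to 2.37), and Klrc3 and Klri1 with IL15 superagonist and with the combination, against 1 and 2 UMIs with PBS and with intervals that hold 1.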

How the data were processed

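The submitters deposited UMI counts per gene and cell barcode for 5 libraries, which the authors made with Cell Ranger 2.1.1 on mm10, per the submitters' processing notes. The sources used here do not say how reads shared by similar genes were treated. From these counts, cells were kept if they had 200 genes or more and no more than 10% mitochondrial UMIs, and cells with markers of 2 lineages (at least 2 genes and 3 UMIs each) were removed as doublets, 1.57% to 3.95% per library. Doublets of a T cell with an NK cell or another T cell remain. Classes were gated on marker UMIs; CD8 T-like cells need 2 UMIs of Cd3d, Cd3e and Cd3g, a Cd8a or Cd8b1 UMI and no Cd4 or Foxp3 UMI. UMIs were summed per class and library. Classes were compared with edgeR 4.0.16 (R 4.3.3; quasi-likelihood test, TMM, filterByExpr, library as a block, at least 20 cells per sum), adjusted over all genes at 0.05, with DESeq2 1.42.0 as an alternative. The libraries are the units; they differ in treatment, so the spread between them is not that of repeated samples. The SE of a log2 difference is its absolute value divided by the square root of the F statistic of the edgeR test. Levels have exact Poisson, ratios exact conditional and shares Clopper-Pearson intervals, computed with scipy 1.17.1. The edgeR and ratio scripts were tested on simulated counts. Coordinates are from GENCODE release M21, sequences from RefSeq. All 7 genes are named. The genes, lists and subsets were chosen with earlier results of these data known.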

Additional observations from a re-analysis of the deposited data

Results flagged for a closer look

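Klrc2 differed between IL15 superagonist and PBS in opposite directions in the 2 cytotoxic classes. It was 1.54-fold higher in CD8 T-like cells (1.19 to 2.02; 234 UMIs in IL15 superagonist and 79 in PBS) and 0.65-fold in NK-like cells (0.48 to 0.89; 221 and 56 UMIs). Each class has 1 library per treatment, so the difference between the classes was not tested. Of the transcript runs of 50 bases in Klrc2, 16.3% also occur in another gene, and in the same classes Klrc1, with which it shares most of them, was 3.12-fold higher in CD8 T-like cells and 1.98-fold higher in NK-like cells.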

How the results depend on the processing

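No paired analysis was possible because the labels carry no replicate numbers and each treatment has 1 library; between classes the library is itself the block. Of 132 settings of treatment counts 123 stayed within 1.5 times, and of 130 settings of class counts 117 did. For single genes, 531 settings of treatment ratios and of shares of cells with a UMI were counted together. Those of ratios included anti-PD1 in place of PBS, and those of shares were cells thinned to 2000 UMIs. Of the 531 values 406 stayed within their interval, 124 moved beyond it and 1 turned direction. Of 454 class differences 395 kept direction and side of the threshold, 32 lost the call, 11 gained one and 16 turned direction. With each cell thinned to 2000 UMIs before gating, the genes called higher in CD8 T-like cells of anti-PD1 against PBS numbered 1, those lower in NK-like cells of fusion 0, those lower in Pdcd1-positive cells 1 and higher 1, and those lower in cycling cells 1. Klrb1c in CD8 T-like cells was then 30.6-fold higher in fusion than in PBS. Without mitochondrial, ribosomal protein and granzyme genes in the total, the genes higher in NK-like cells of anti-PD1 numbered 1 and those lower in combination 1. Without doublet removal, those lower in NK-like cells of IL15 superagonist numbered 0. With anti-PD1 in place of PBS, chosen after seeing the data, 3 were higher in CD8 T-like cells of IL15 superagonist, 2 higher and 2 lower in those of fusion, and 0 lower in NK-like cells of IL15 superagonist, and Klrc2 in CD8 T-like cells of IL15 superagonist was 0.97-fold. Without the library as a block, 0 were higher in Ly49-positive cells, 1 was lower in Pdcd1-positive cells and 0 lower in cycling cells. In Pdcd1-positive cells 1 gene was higher with DESeq2, with no filter on low counts and without doublet removal.

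Leaving out 1 library each, the genes higher in CD4 T-like cells numbered 0 to 1, and those higher in Pdcd1-positive cells 0 to 1. Directions turned for differences that did not pass the threshold, in log2. Klrc1 between NK-like and CD8 T-like cells ran from -0.0382 to 0.2004 over the libraries left out, Klrb1c between CD4 and CD8 T-like cells from -0.187 to 0.637, and Klrc1 in Ly49-positive cells from -0.0354 to 0.0998, with -0.0105 when low counts were not filtered. In Pdcd1-positive cells Klrc1 ran from -0.104 to 0.0627 and Klrg1 from -0.183 to 0.537. There Klrc1 was at 0.0596 with no filter, 0.0842 without doublet removal and 0.0864 at equal depth, and Klrk1 at 0.0531 at equal depth. Klre1 in cycling cells ran up to 0.0789 and down to -0.183, with 0.0286 at equal depth. The cause of these changes was not tested. Depth limits Klrb1c in CD8 T-like cells with PBS (15 UMIs) and Klrg1 in NK-like cells with PBS (20 UMIs).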
